A study of Mus musculus with 2 samples.

Results

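The olfactory receptor (OR) cluster beside the major histocompatibility complex (MHC) on mouse chromosome 17 was examined for chromatin boundaries in mature olfactory sensory neurons. Its members were all genes of GENCODE mouse release 21 whose names begin with Olfr and that lie at chr17:37083871-38336643 (GRCm38), pseudogenes included. The rule found 58 genes, of 1407 Olfr genes on chromosomes 1 to 19 and X, and took no measured value into account. Of the 58, 49 are annotated as protein-coding, 8 as unprocessed pseudogenes and 1 (Olfr753-ps1) as a polymorphic pseudogene. Olfr104-ps, Olfr105-ps and Olfr106-ps are annotated as coding despite their names. The members were set against the boundaries of their span and of 1 Mb to each side, 12 of the 8058 in the deposited list.

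The list comes from in situ Hi-C, which cuts crosslinked chromatin with DpnII and ligates ends that were near each other in the nucleus. The cells were mature neurons that FACS had separated from olfactory epithelium of untreated adult OMP-GFP mice, in which the olfactory marker protein gene drives the reporter. The labels give strain 129P2/OlaHsd and mixed sex, and list no genetic modification beside the OMP-GFP name. The 2 biological replicates formed 1 group, came from 3000000 and 1500000 cells fixed in 1% formaldehyde, and were pooled by the authors into 1 contact map before boundaries were called. Values therefore have no spread between replicates and no sample-level test was possible. Contact depth is unknown here. A boundary list holds no expression values, so the sorted cells could not be checked against markers such as Omp or Gnal.

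OR genes encode the G protein-coupled receptors that bind odorants, and each mature neuron is known to express 1 of them from 1 allele while the others stay silent. They sit in tandem arrays, where the coding sequence of a receptor usually lies in a single exon behind 1 or more untranslated exons. A boundary is a place that contacts cross less often than its surroundings, and many boundaries form where CTCF, a zinc finger protein, halts cohesin on the chromatin fibre. The MHC-linked cluster is embedded in the far end of the class I region. The coding H2- genes of this region encode MHC class I and class I-like molecules, and members of the H2-M10 family are known from vomeronasal neurons.

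The 5 boundaries inside the span were not spread evenly by strength (the authors' score, in which Strong is above 0.5 and Weak runs from 0.2 to 0.5). Both Strong ones lay in the part nearest the MHC, and each covered the annotated start of a receptor gene. The first, at chr17:37085001-37090000, had a strength of 0.9 and covered the start of Olfr90, the first gene of the cluster, with 930 coding and 1128 untranslated exonic bases. The next, at chr17:37280001-37285000, had a strength of 0.691 and held the start of Olfr99, with 418 coding and 402 untranslated exonic bases. The promoter sequences of these genes are shown because their starts share a 5 kb bin with a Strong boundary, and that of Olfr136 because it ends the cluster 175 kb from any boundary. Olfr90 and Olfr136 followed the naming rule and Olfr99 was added after its values were seen. Each run goes from 250 bases before to 50 bases after the GENCODE start, read from the RefSeq copy of GRCm38.p6, and capitals mark the Ebf core CCCNNGGG and the homeodomain core TAATTA. Olfr90 lies at chr17:37088450-37088749 on the minus strand, Olfr99 at chr17:37283411-37283710 on the minus strand and Olfr136 at chr17:38329581-38329880 on the plus strand.
Olfr90: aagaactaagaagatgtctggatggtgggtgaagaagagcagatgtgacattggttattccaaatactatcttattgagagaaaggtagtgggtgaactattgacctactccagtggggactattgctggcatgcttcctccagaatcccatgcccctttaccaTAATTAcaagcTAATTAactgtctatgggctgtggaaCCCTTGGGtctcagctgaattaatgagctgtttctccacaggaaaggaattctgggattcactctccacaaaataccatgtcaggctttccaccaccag
Olfr99: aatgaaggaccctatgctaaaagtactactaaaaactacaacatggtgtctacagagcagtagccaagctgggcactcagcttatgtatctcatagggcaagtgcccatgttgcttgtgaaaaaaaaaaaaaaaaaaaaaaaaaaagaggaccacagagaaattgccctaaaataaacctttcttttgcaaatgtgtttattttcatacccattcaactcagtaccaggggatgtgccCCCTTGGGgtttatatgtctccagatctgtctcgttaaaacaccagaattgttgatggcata
Olfr136: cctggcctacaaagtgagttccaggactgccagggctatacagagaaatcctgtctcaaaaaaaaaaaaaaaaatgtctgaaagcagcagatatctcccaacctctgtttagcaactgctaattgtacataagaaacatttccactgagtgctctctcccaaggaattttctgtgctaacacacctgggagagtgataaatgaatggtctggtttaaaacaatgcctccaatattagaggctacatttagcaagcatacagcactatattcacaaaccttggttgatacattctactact

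Ebf factors and the homeodomain factor Lhx2 are known to bind OR promoters and enhancers in olfactory neurons. The Olfr90 promoter held 2 homeodomain cores and 1 Ebf core, that of Olfr99 held 1 Ebf core, and that of Olfr136 held neither. Over the members, 11 of 58 promoters (19%) held a homeodomain core, against 317 of 1349 promoters of Olfr genes elsewhere (23.5%) and 5.22% of the promoters of all protein-coding genes. An Ebf core was in 8 of 58 (13.8%), against 13% elsewhere among Olfr genes and 15.9% of all coding promoters. This depended on the start used. RefSeq starts of matched members mostly lay far from the GENCODE ones, by a median of 3309 bases. They may mark the coding exon, so windows there may not be promoters. In these windows the Ebf core was in 5 of 35 matched members (14.3%), against 24 of 909 other Olfr genes (2.64%). The homeodomain core was in 4 of 35 (11.4%), against 18.9%. Both cores read the same on either strand, so the search covered both, and a match of one cannot overlap a match of the other. Median GC content was 38.8% in member promoters, 37% in other Olfr promoters and 55% in coding promoters, and its part in these shares was not tested.

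At GENCODE starts the cores were not spread evenly along the cluster. Of the 12 members between the Olfr90 and Olfr99 boundaries, 6 had a homeodomain core, namely Olfr90, Olfr91, Olfr92, Olfr93, Olfr94 and Olfr95. Of the other members with one, Olfr103 lay in the next interval, Olfr124 to Olfr126 in the one after, and Olfr138 in the last. All 8 Ebf cores were in the first 2 intervals, 3 in the first and 5 in the next. Their genes were Olfr90, Olfr93, Olfr98, Olfr99, Olfr101, Olfr104-ps, Olfr105-ps and Olfr108. Many of these genes are close relatives, so the counts are not independent. Olfr90 to Olfr93 were 83.6 to 89.8% identical in reading frame. Olfr98, Olfr99 and Olfr108 also belong to a group of like reading frames, as do Olfr101, Olfr104-ps and Olfr105-ps (groups described below). The order of the cores along the cluster was noticed in the data and is given as a description. For the homeodomain core it was absent at RefSeq starts, where 0 of the 8 matched members of the first interval had one and Olfr123, Olfr124, Olfr132 and Olfr134 did. The 5 members with an Ebf core there (Olfr93, Olfr96, Olfr98, Olfr99 and Olfr108) again lay in the first 2 intervals.

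The remaining boundaries inside the span were all Weak. The one at chr17:37650001-37655000 had a strength of 0.416 and lay in no annotated gene, in the 30.4 kb gap between Olfr116 and Olfr117, with their starts 25 kb and 10 kb away. The one at chr17:37865001-37870000 had a strength of 0.289 and lay in the 48.4 kb gap between Olfr126 and Olfr127, with their starts 20 kb and 35 kb away. The one at chr17:38055001-38060000 had a strength of 0.29 and covered exons of Olfr129, 1076 bases of exon of which 591 are coding. Olfr129 (minus strand) and Olfr130 (plus strand) point away from each other, and the starts of both lay 5 kb from this boundary. On its other side the nearest member start was that of Olfr761, 105 kb away, across the widest gap between neighbouring members (97.8 kb, against a median of 11.8 kb).

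**Figure D1:**
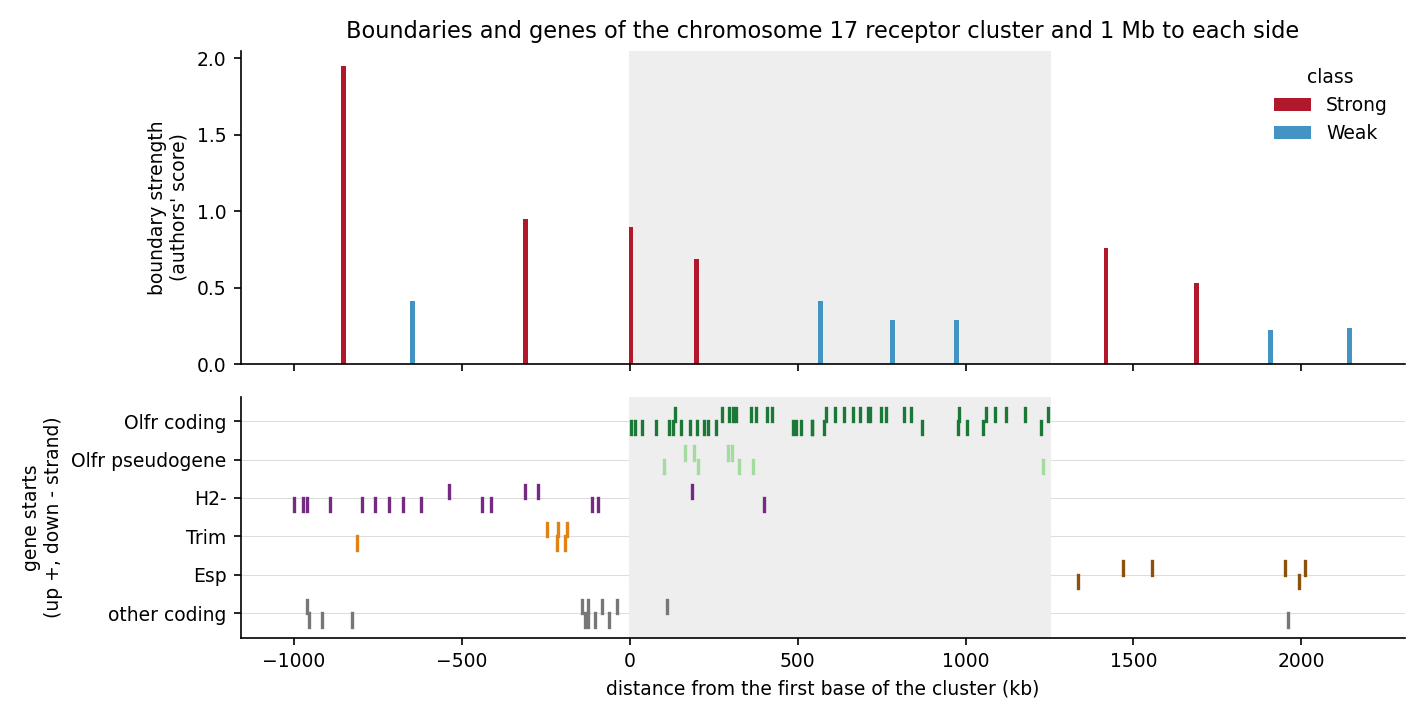
Upper panel, boundary strength (authors' score) of the 12 boundaries by distance in kb from the first base of the cluster, with the class in colour. Lower panel, gene starts by family, with plus-strand genes above and minus-strand genes below each line, and the span of the members shaded. The 2 Strong boundaries in the shaded span, of 0.9 and 0.691, stand at its MHC side and the 3 Weak ones, of 0.289 to 0.416, farther on.

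Within the whole list these strengths were middling to low, with a median of 0.416 against 0.509 over the list. Of the 8058 boundaries, 73.8% were weaker than the one at Olfr90 and 62.9% weaker than the one at Olfr99. For the 3 Weak ones the share was 41.2% between Olfr116 and Olfr117, 23.5% between Olfr126 and Olfr127 and 23.7% at Olfr129. None of the 5 reached the top 25% of strengths, which begins at 0.928. The Strong class made up 2 of 5 boundaries in the span (40%, 95% exact Clopper-Pearson interval 5.27 to 85.3%), against 50.8% of the whole list and 43 of 104 (41.3%) inside the other Olfr clusters. Such intervals cover the counting of boundaries only, and 5 boundaries cannot set the cluster apart from either share.

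Of the 58 members, 12 had a boundary within 20 kb of their start, measured between 5 kb bins (20.7%, exact interval 11.2 to 33.4%). The share over all protein-coding genes was 21.2% and over all Olfr genes 11.9%, so the members' share was near that of coding genes in general, and both background shares lay inside the interval. The 12 genes drew on 5 boundaries, so they are not independent, and the interval is too narrow for that reason. The Olfr99 boundary accounted for 5 of them: Olfr98 (20 kb), Olfr755-ps1 (5 kb), Olfr99 (same bin), Olfr756-ps1 (5 kb) and Olfr101 (20 kb). The Olfr90 boundary had Olfr90 (same bin) and Olfr91 (10 kb), and the Weak ones had Olfr117 (10 kb) and Olfr118 (15 kb), Olfr126 (20 kb), and Olfr129 and Olfr130 (both 5 kb). A boundary shared the start bin of 2 of the 58 members, against 687 of 21755 coding genes and 16 of 1407 Olfr genes. Both of these members were at Strong boundaries, and 7 of the 12 were near a Strong one. These 7 drew on only the 2 Strong boundaries of the span. The share of Strong boundaries among those near genes in general was not measured, so the count cannot be read as an excess. Coding members (10 of 49, 20.4%) and pseudogenes (2 of 9, 22.2%) had like shares.

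The other 46 members lay farther off, and 15 of the 58 were over 100 kb from any boundary. The median distance was 72.5 kb, against 95 kb for Olfr genes elsewhere and 60 kb for all coding genes. Olfr138 was the farthest, 205 kb from the boundary at Olfr129. Olfr137 lay 195 kb and Olfr762-ps1 185 kb from the Strong boundary beyond the end of the cluster. Olfr109, in the middle of the interval after Olfr99, was 175 kb away. Minus-strand members had a boundary within 20 kb in 8 of 28 cases (28.6%, exact interval 13.2 to 48.7%). Plus-strand members had one in 4 of 30 (13.3%, 3.76 to 30.7%). These intervals overlap, and both are too narrow because neighbours share boundaries.

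**Figure D2:**
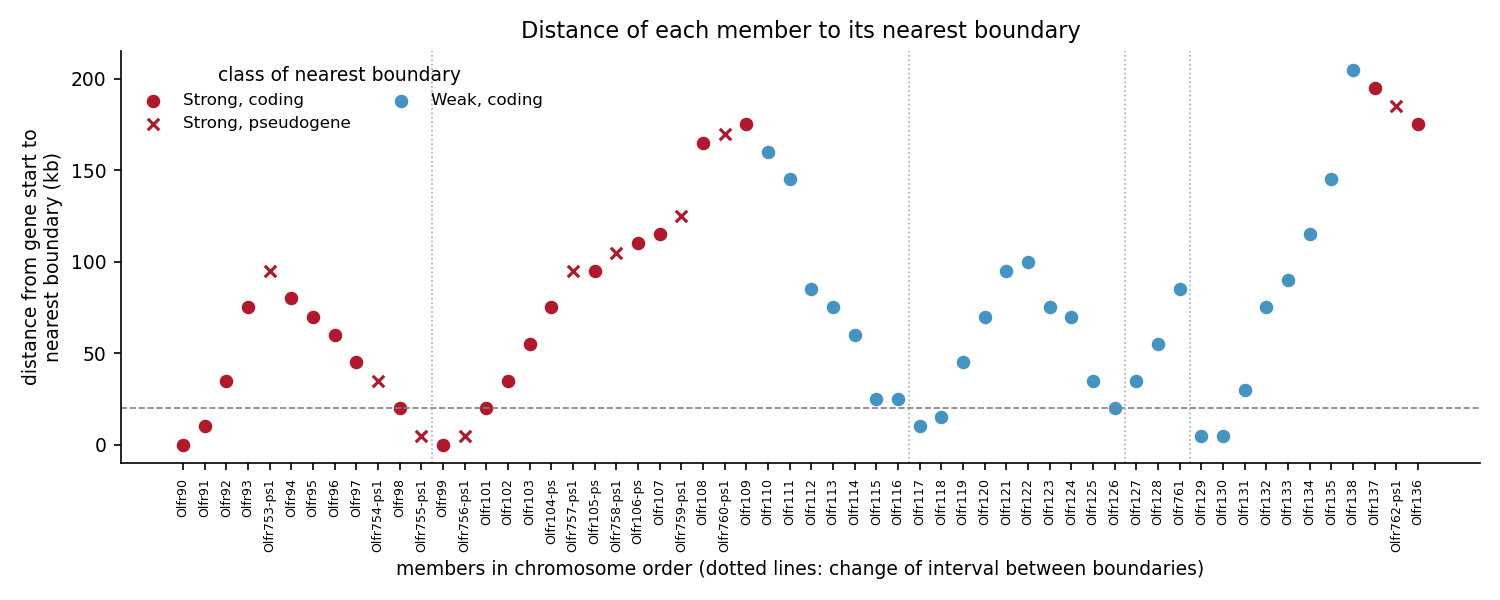
Distance in kb from each member's start to the nearest boundary, members in chromosome order, with colour for the class of that boundary, crosses for pseudogenes, a dashed line at 20 kb and dotted lines where the interval between boundaries changes. Of the 58 members 12 lie on or below the dashed line, and distances climb to 175 kb between the Olfr99 boundary and the next and to 205 kb at the end of the cluster.

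The boundaries divided the members into 5 intervals, measured from boundary to boundary, with a gene that starts in a boundary bin counted after it. The first, of 195 kb from Olfr90 to Olfr755-ps1, held 12 members, 9 of them on the minus strand, together with H2-M3 and Ubd. The second, of 370 kb from Olfr99 to Olfr116, held the most members, 22, and the MHC gene H2-M2. The third, of 215 kb from Olfr117 to Olfr126, held 10, of which 9 were on the plus strand. The fourth, of 190 kb, was sparse, with Olfr127, Olfr128 and Olfr761 only, at 1.58 members per 100 kb against 6.15 in the first. The last ran 445 kb from the Olfr129 boundary past the end of the cluster and held 11 members and Esp36. Among the 7997 intervals of the list with at most 50 kb of undetermined bases the median was 260 kb, and 82.3% were shorter than the last interval and 27.7% shorter than the fourth. Counting Strong boundaries alone, a single stretch of 1220 kb from the Olfr99 boundary to the one beyond the cluster held 46 of the 58 members. Of the 4072 spacings between Strong boundaries in the list, 89.3% were shorter, and the median was 405 kb.

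The span began at a boundary on the MHC side and ran on without one at the other. The first base of the cluster lay 5 kb from the Olfr90 boundary. A boundary this near an edge was not particular to this cluster. Of the 38 other Olfr clusters, 3 had one in the bin of the first gene's edge and 8 in the bin of either edge. Others, such as Olfr24 to Olfr18 on chromosome 9, also had one 5 kb from the first edge. On its MHC side stood Gabbr1, a GABA-B receptor subunit gene, whose start was 40 kb away, and Mog, a myelin glycoprotein gene, 65 kb away. Gabbr1 reads on the plus strand and Olfr90 on the minus strand, so they point toward each other. At the far edge the last base of Olfr136 was 165 kb from the next boundary, a Strong one of 0.759 at chr17:38500001-38505000 in no annotated gene. Of the 38 other Olfr clusters, 1 had a last edge farther from a boundary, and 3 had either edge farther.

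Toward the MHC, the 1 Mb flank held 3 boundaries, 2 of them Strong. The strongest of the region, 1.95 at chr17:36230001-36235000, overlapped 26 bases of the processed pseudogene Gm18604, 25 kb from the start of Rpp21, a ribonuclease P subunit gene, and 96.2% of the list was weaker. A Weak one of 0.413 at chr17:36435001-36440000 lay 25 kb from the start of H2-M10.4, and covered the processed pseudogene Lgals1-ps1. A Strong one of 0.946 at chr17:36770001-36775000 held the start and 923 coding bases of H2-M10.5. The 315 kb between it and the Olfr90 boundary held no member and carried H2-M10.6, 5 Trim genes (ubiquitin ligases of the tripartite motif family) and Zfp57, a zinc finger gene needed to keep imprints.

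Of 18 H2- genes in the span and flanks, pseudogenes included, 3 had a boundary within 20 kb (16.7%, exact interval 3.58 to 41.4%). They were H2-M10.5 in the boundary's own bin, H2-M3, 10 kb from the Olfr99 boundary, and H2-Bl, 20 kb from a Strong boundary of 0.662 just outside the flank. H2-M3, which presents formylated bacterial peptides, was near the same boundary as 5 members. H2-M2 was 170 kb from any boundary and H2-M5, the H2- gene nearest the MHC-side edge, 100 kb. Of the 7 H2-M10 genes 1 had a boundary within 20 kb, and the distances of the family reached 95 kb. Among coding genes, 10 of the 49 members were that close to a boundary, against 1 of the 29 coding genes of the MHC-side flank (3.45%, exact interval 0.0873 to 17.8%) and 21.2% of all coding genes. None of the 6 Trim genes had one. Neighbouring genes share boundaries, so the intervals in this paragraph are too narrow and cannot set the flank apart.

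Past the cluster, 6 of the 7 coding genes (all but Gm21903) were of the Esp family, which encodes peptides secreted by exocrine glands and sensed by vomeronasal neurons. This flank held 4 boundaries, of 0.759, 0.532, 0.223 and 0.237 in chromosome order, the first 2 Strong. None of its 6 Esp genes had a boundary within 20 kb, with Esp24 nearest at 45 kb, then Esp34 at 50 kb and Esp31 farthest at 135 kb. Esp22, which encodes a juvenile pheromone of tears, was 105 kb away. Per Mb, the span held 3.99 boundaries, the MHC-side flank 3 and the Esp-side flank 4, with 3.35 over chromosome 17 and 3.15 over all chromosomes. For Strong boundaries alone the span held 1.6 per Mb, the same as over all chromosomes (1.6), with 1.68 over chromosome 17 and 2 in each flank.

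No exact match to the CTCF core consensus, a 14-letter pattern searched on both strands, lay anywhere in the 1.25 Mb of the span. The MHC-side flank held 6 and the Esp-side flank 1. Among 2007 stretches of the span's length laid end to end over the genome, 81.6% held at least 1 exact match and 369 held none. The other Olfr clusters held 40 matches, 1.17 per Mb against 2.57 per Mb genome-wide, and 4 of the 13 that are 1 Mb or longer held none. Of the 12 boundaries of the region 1 had a match within 20 kb, where 21.9% of all boundaries did. With 1 mismatch allowed the span held 20 matches, 16 per Mb against 25.2 per Mb genome-wide. No match says only that these letters are not in the window. Nothing follows from it about CTCF itself, whose binding was not measured in the list.

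The exact matches within 50 kb of a boundary of the region are shown, and both boundaries are Strong ones of the MHC side. Each is labelled by the coding gene whose start is nearest to the boundary, not to the match. Capitals mark the core, read 5′ to 3′ on the minus strand. The H2-M10.5 match, at chr17:36789027-36789066, lay between genes 15 kb from its boundary and pointed toward it. The match for the Rpp21 boundary, at chr17:36193729-36193768, lay 40 kb away, outside the 20 kb window, and pointed away from it.
H2-M10.5: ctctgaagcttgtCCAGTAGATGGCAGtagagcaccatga
Rpp21: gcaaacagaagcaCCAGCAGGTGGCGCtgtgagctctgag

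Related receptors were grouped in blocks, and some blocks ran across boundaries. Reading frames of the 49 coding members (918 to 1161 bases) were aligned pairwise, and identity was the share of aligned columns that matched. Joining members at 80% identity or more gave 8 groups with 39 genes and left 10 genes alone. A member needed that identity to only 1 other of its group, so some pairs within groups fell below it. The lowest pair was 73.7% in the group of Olfr101, 77.4% in that of Olfr112 and 76.1% in that of Olfr133. Of the 8 groups, 4 lay in a single interval and 4 in several. Olfr90 to Olfr93 formed a group in the first interval (83.6 to 89.8%), Olfr101 to Olfr106-ps a group of 6 and Olfr110 with Olfr111 a pair in the second, and Olfr133, Olfr134, Olfr135, Olfr138 and Olfr136 a group in the last. Olfr112 to Olfr116, just before the Weak boundary of 0.416, shared a group of 9 with Olfr126, Olfr127, Olfr128 and Olfr761, which stand on both sides of the boundary of 0.289. Olfr118 to Olfr122, just after the boundary of 0.416, grouped with Olfr129, which covers the boundary of 0.29, at 89.3 to 95.6%. Olfr117 and Olfr130 were 95.4% identical.

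**Figure D3:**
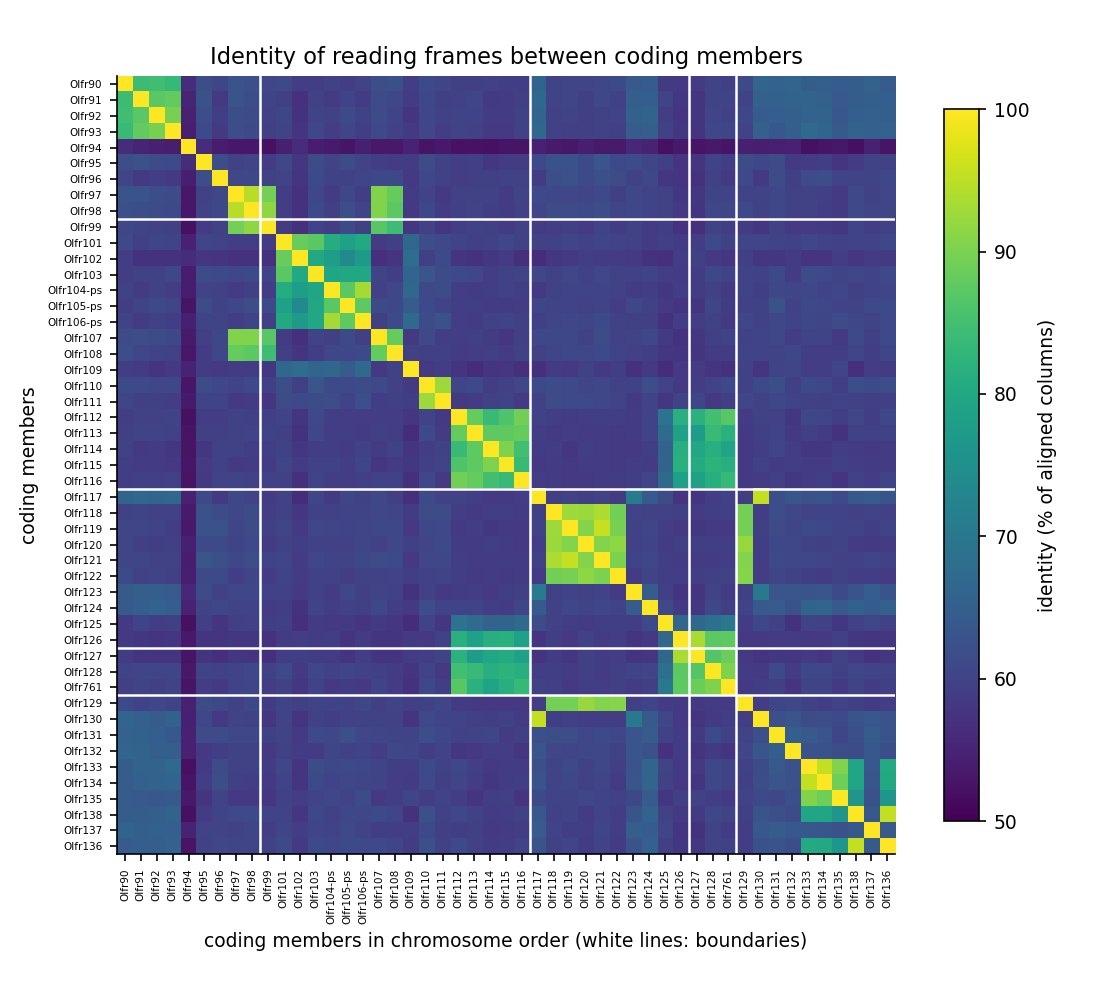
Identity of reading frames (% of aligned columns) for every pair of the 49 coding members, in chromosome order on both axes, with white lines at the boundaries. Blocks of high identity end at some lines, as at Olfr116 and Olfr117 (59.1%), and also between lines, as at Olfr93 and Olfr94 (54.1%). At Olfr126 and Olfr127 (93.6%) a block runs across a line. Olfr98 and Olfr99 (91.7%) are also parted by a line, but Olfr99 is counted after it by its start only and does not extend beyond the boundary bin.

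At 4 of the 5 boundaries, neighbouring coding members fell in different intervals, and 2 of these pairs were close in sequence and 2 distant. Olfr98 and Olfr99, of which Olfr99 starts inside the Strong boundary of 0.691 and Olfr98 lies before it, were 91.7% identical. The boundary bin held 418 coding bases of Olfr99, whose frame is 918 bases, and no part of the gene lies beyond it. This pair therefore does not span the boundary. Olfr126 and Olfr127, across the Weak one of 0.289, were 93.6% identical. Olfr116 and Olfr117, across the Weak one of 0.416, were 59.1% identical, and Olfr761 and Olfr129, of which Olfr129 covers the one of 0.29, 58.5%. For the 44 pairs of neighbours with no boundary between them the median was 79.9%, but these pairs too were both close and distant. Olfr133 and Olfr134 were 95.3% identical, Olfr93 and Olfr94 54.1%, and Olfr99 and Olfr101 58.9%. Distant neighbours were therefore not particular to boundaries. The close pairs are shown by 60 bases from the middle of their longest alignment without gaps, with capitals where partners differ. Olfr98 lies at chr17:37263442-37263501 and Olfr99 at chr17:37280198-37280257, both minus strand, with 2 differing bases, and this stretch of Olfr99 lies inside the boundary bin. Olfr126 lies at chr17:37850843-37850902 and Olfr127 at chr17:37903797-37903856, both plus strand, with 4 differing bases.
Olfr98: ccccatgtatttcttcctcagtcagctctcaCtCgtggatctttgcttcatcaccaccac
Olfr99: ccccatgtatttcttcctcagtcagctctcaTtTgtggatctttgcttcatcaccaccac
Olfr126: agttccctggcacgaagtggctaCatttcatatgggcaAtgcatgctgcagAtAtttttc
Olfr127: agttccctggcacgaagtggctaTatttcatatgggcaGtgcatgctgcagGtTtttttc

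The median identity differed little by interval, while close pairs were more often within one. The 265 pairs in the same interval had a median of 60.6% and the 911 pairs in different intervals one of 59.8%. Identity was over 80% in 48 of the same-interval pairs (18.1%) and in 29 of the different-interval pairs (3.18%). Pairs share genes and are not independent. Pairs in the same interval also tend to lie nearer each other on the chromosome, and the part of that distance was not tested. The closest relative within the cluster lay in the same interval for 34 of 49 coding members and was the next coding gene for 19. Measured against the 1084 coding Olfr genes elsewhere, the closest relative was in the cluster for 43 of 49. The exceptions were Olfr94, Olfr95, Olfr96, Olfr124, Olfr131 and Olfr137, each closer to a gene on another chromosome at 58.5 to 69.3%. The most alike pair, Olfr119 and Olfr121, reached 95.6%. How reads were assigned among such copies is not given in the sources used here, and the part of this likeness in the boundary strengths was not tested.

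Of the 49 coding members, 44 have their coding sequence in 1 exon in every annotated coding transcript, and 46 have a transcript with more than 1 exon. The median gene length was 5551 bases, from 413 for Olfr757-ps1 to 24420 for Olfr111. The longest run on 1 strand was 11 plus-strand genes from Olfr118 to Olfr128, and the boundary of 0.289 fell within it. Base composition of the span, over 252 bins, was 38.8 ± 2.79% GC (SD over bins), against 43.8 ± 3.22% in the MHC-side flank and 37.1 ± 2.95% in the Esp-side flank. DpnII sites, which limit the resolution of a library, numbered 2.87 ± 1.03 per kb in the span, 2.28 ± 0.923 in its 5 boundary bins and 2.51 ± 0.901 over all chromosomes. The soft-masked (repeat) share was 46.3% in the span and 34.3% over all chromosomes, and no base of the span was undetermined. Their part in where boundaries were called was not tested. The effect of sequence that sets 129P2/OlaHsd apart from the C57BL/6J reference was not tested either, in a region known for variation between strains.

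Beside the other Olfr clusters (39 in all, each a run of at least 3 genes with gaps up to 1 Mb), 6 had more genes than this one. Its 3.99 boundaries per Mb were exceeded in 13 of the 38 others, which ranged from 0 to 7.88 with a median of 2.68. Its share of genes near a boundary, 20.7%, was exceeded in 11, with a median of 10.3% over the others. Among the 17 clusters with at least 20 genes, 4 were above it in density and 2 in that share, and 14 had a longer longest interval (445 kb here, against a median of 638 kb over the others). Of the pair of clusters nearest in gene number, that on chromosome 10 from Olfr9 to Olfr827 had 67 genes in 1.22 Mb with 4 boundaries, 1 of them Strong, and 11.9% of its genes were within 20 kb of one. The other, on chromosome 9 from Olfr24 to Olfr18 with 49 genes in 1.58 Mb, had 8 boundaries, 1 of them Strong, and 22.4%. The cluster with the most genes, on chromosome 2, had 287 genes, 1.97 boundaries per Mb and 7.67%. With 1 pooled map these differences carry no error, and they are ranks in this list only.

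**Figure D4:**
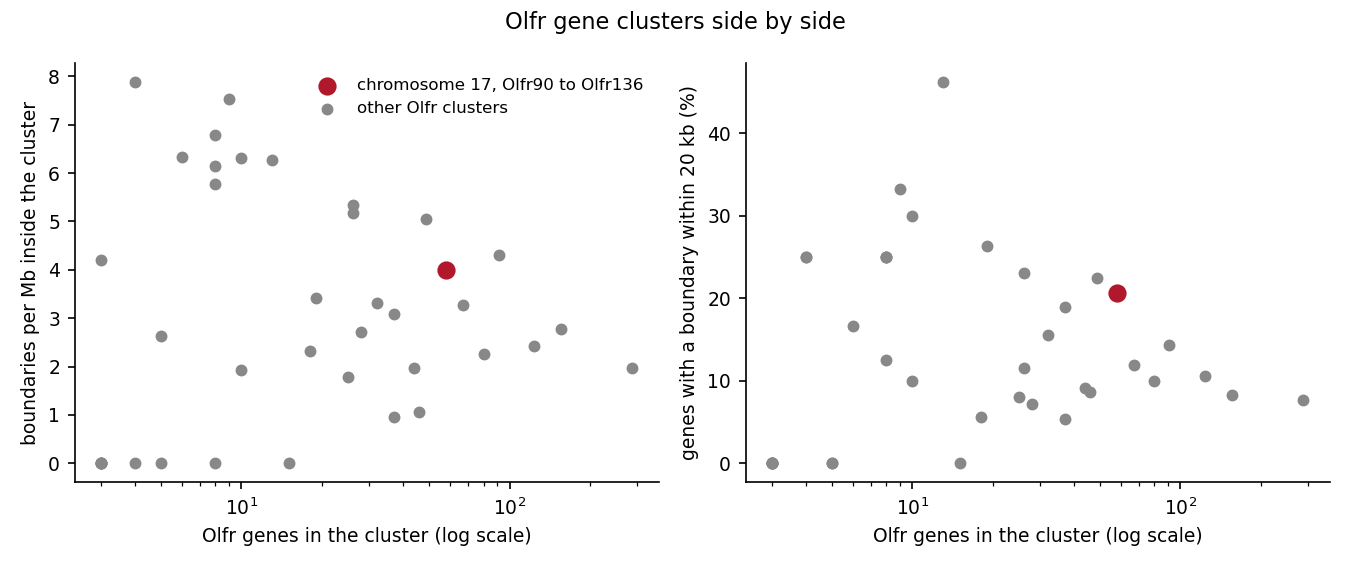
The 39 Olfr clusters by gene number (log scale), with boundaries per Mb inside the cluster on the left and the share of genes with a boundary within 20 kb (%) on the right. The chromosome 17 cluster (large red point) stands at 3.99 per Mb and 20.7%, inside the range of the others.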

How the data were processed

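Boundaries were measured by in situ Hi-C in 2 replicates of mature olfactory sensory neurons, which the authors pooled. Per the series design text, the authors called boundaries on the pooled contact matrix (GRCm38, as also given in the submitters' processing notes). The caller, window and mapper, with their versions, were not given in the sources used here. Per row, the authors' deposited table gives 5 kb intervals, a class and a boundary strength, a score whose scale is not stated. From the values, Weak is at most 0.5 and Strong above it. Contact depth is unknown, so how depth limits weak calls cannot be given.

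Gene records of GENCODE mouse release 21 and the RefSeq sequence of GRCm38.p6, the build of the list, were joined to the boundaries in Python 3.11.15 (numpy 2.4.6, pandas 2.3.3, scipy 1.17.1). Distance was counted between 5 kb bins, and within 20 kb counted as near. Reading frames, the longest from a start to a stop codon in coding transcripts, were aligned with edlib 1.3.9.post1. The RefSeq promoter table held 35 of 58 members, and its starts lay within 500 bases of the GENCODE start for 5, so promoters were read from the genome at GENCODE starts. The functions were tested on simulated data. Members and gene lists were chosen with earlier results of these data known. No test was run, because 1 pooled map has no replicates to compare.

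Genes were named by a rule. It took the first and last member, members starting in or next to a boundary bin, the nearest member on each side of each inner boundary, the nearest coding gene at each flanking boundary, the 3 farthest members, and H2- genes in the span or nearest its edges. Other genes were named after their values were seen. Alternatives changed the window, class, span, flank, gene type, motif rule and cluster definition.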

Additional observations from a re-analysis of the deposited data

How the results depend on the processing

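The share of members with a boundary within 20 kb (20.7%) was 13.8% within 10 kb, 12.1% with Strong boundaries only, 20.4% for coding members and 20.7% from gene bodies, but 37.9% within 50 kb. The 5 boundaries inside became 2 with Strong ones only and 0 in the top 25% of strengths. Their density of 3.99 per Mb (3.15 over all chromosomes) became 1.6 with Strong ones only, where all chromosomes also had 1.6. The higher density in the span was thus not seen for Strong boundaries. The longest interval of 445 kb became 1220 kb with Strong boundaries only. The share of H2- genes (16.7%) was 44.4% within 50 kb. For members and H2- genes, the shares of all genes at these other settings are not given. Whether members stay near the coding-gene share there is therefore not known. Boundaries with a CTCF match numbered 1 of 12, then 2 within 50 kb (33.4% of all boundaries) and 3 with 1 mismatch (76.3% of all). These wider windows and looser motifs count more by construction and the stricter classes fewer. The Strong share stayed at 40% and the edge distances at 5 and 165 kb under their alternatives, the share of H2- genes ran from 11.1 to 25% over the other window and flank sizes, and the cluster's density stayed at 3.99 per Mb, with 12 of 36 or 14 of 43 clusters above it. Windows at RefSeq starts, which may not be promoters and were chosen after seeing the data, gave 14.3% for the Ebf core over 35 members. The shares there were 2.64% of other Olfr genes and 13.4% of all genes with a RefSeq start (13.8, 13 and 15.9% at GENCODE starts, the last over coding genes). For the homeodomain core the RefSeq windows gave 11.4%, against 18.9% and 5.31% (19, 23.5 and 5.22%). The cause was not tested. No paired analysis was possible because the list comes from 1 map that pools both replicates, so no replicate could be left out. How far depth limits Weak calls cannot be given, since the contact number is unknown.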
